A study of Mus musculus with 4 samples.

Results

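The genes described here are 49 mouse genes of the interferon response and of antigen presentation: interferon receptors, the sensors and transcription factors of the pathway, antiviral effectors, and the proteins that make peptides for the major histocompatibility complex (MHC). They were found by symbol among the rows of the deposited array table, and a row counted only where the platform's annotation gave it exactly 1 gene. Of the 49 genes, 46 had such a row, and together they held 65 of the table's 28815 rows, which name 19935 genes in all. Nlrc5 had 19 of these rows, Irf1 had 2, and the other 44 genes had 1 each. The row of Isg15 is shared with Gm9706 and that of Gbp2 with Gbp2b, so neither gene was read, and Ifi44 was not analysed here.

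The study asked how CSA changes the bulge stem cells of the hair follicle, its resting stem cells, relative to vehicle. CSA is an abbreviation of the labels; in studies of calcineurin it means cyclosporine A, a drug that inhibits this phosphatase and suppresses T cells. Both groups were male mice of strain CD-1 aged 56 days after birth, for which the labels name no allele, and their follicles were in the second telogen (a resting phase of the hair cycle). For 3 days one group was injected intraperitoneally with CSA at 100 mg/kg and the other with vehicle, and bulge cells were then sorted from skin by CD34 and alpha6 integrin together. Each group had 2 replicates, called biological by the series design, with no word on how many mice gave each, and the 4 RNA samples were amplified from 20 ng each. The p-values measure only the spread between these samples.

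Interferons are secreted proteins that warn cells of infection. Type I interferon binds the receptor of Ifnar1 and Ifnar2, which activates JAK kinases and a complex that holds Stat2 and Irf9; that complex binds the interferon-stimulated response element (ISRE) of its target genes. Interferon gamma, made by T cells and natural killer cells, binds the receptor of Ifngr1 and Ifngr2 and acts at the gamma-activated site (GAS); it raises the immunoproteasome and the peptide transporter that supply MHC class I. Quiescent hair follicle stem cells are known for low MHC class I.

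The promoter letters behind this wiring were read from RefSeq windows of 300 bases around each gene's start (250 before it and 50 after it; assembly GRCm38.p6), of which 40 of the 49 genes had at least 1. The ISRE core GAAANNGAAA was searched on both strands and stood in 16 of the 40 genes (40%), against 3.99% of all genes with a window. The GAS core TTCNNNGAA stood in 11 of the 40 (27.5%), against 9.55% of all genes. A match describes the letters and is not a measured binding site, and no match says only that these letters are not in the window. The genes with a row of their own and at least 2 ISRE matches are shown because their values can be read against a promoter that holds the element more than once. Capitals mark the matches, which overlap each other in Gbp3, Oas1a, Trim21 and Bst2; each stretch is written 5′ to 3′ on the gene's strand.
Gbp3, chr3:142559974-142560039, plus strand: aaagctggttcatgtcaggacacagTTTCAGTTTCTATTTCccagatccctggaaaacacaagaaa
Oas1a, chr5:120907505-120907570, minus strand: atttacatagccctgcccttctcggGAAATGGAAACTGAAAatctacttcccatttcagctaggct
Trim21, chr7:102565453-102565494, minus strand: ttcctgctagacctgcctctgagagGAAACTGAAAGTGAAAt
Bst2, chr8:71537562-71537627, minus strand: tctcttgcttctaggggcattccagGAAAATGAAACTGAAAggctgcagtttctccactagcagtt
Ifit3, chr19:34583348-34583441, plus strand: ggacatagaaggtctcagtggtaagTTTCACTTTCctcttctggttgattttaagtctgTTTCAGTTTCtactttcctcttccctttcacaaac
Ifit1, chr19:34640760-34640838, plus strand: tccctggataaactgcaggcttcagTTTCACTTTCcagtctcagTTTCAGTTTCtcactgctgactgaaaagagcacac

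Values are on the authors' log scale, whose base was taken as log2, and each row is centred on a baseline of theirs, so 0 is that baseline and not the absence of RNA. Because of the centring, levels cannot be compared between genes, and in RNA from many cells, fewer cells of a type and less RNA per cell cannot be told apart. Over all rows the array medians lay between -0.02 and 0.06, and vehicle replicate 1 had the widest spread over rows (SD 0.473, against 0.371 to 0.408 on the other arrays) and the highest value in 43.9% of rows. Over rows, which are not independent, Pearson r was 0.52 between the replicate 2 arrays of both groups and 0.02 to 0.17 for the other 5 pairs of arrays. Of 10 bulge markers, 7 stood above the baseline on all 4 arrays. Cd34 read 1.75 and 3.60 with CSA and 4.05 and 4.25 with vehicle. Alpha6 integrin itself, Itga6, was not among the 7, with 3 of 4 arrays below 0. CSA replicate 1 was the lowest array for 7 of the 10 markers (70%, against 21.4% of all rows), and vehicle replicate 1 for 3. Vehicle replicate 1 was the highest array for 11 of 13 leukocyte and T cell markers, 13 of 16 markers of Langerhans cells, macrophages and dendritic cells, 7 of 8 endothelial markers and 8 of 9 markers of differentiated epidermis. It therefore stands apart, and for most lists the counts are also given without it.

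No interferon or antigen presentation gene passed the test between CSA and vehicle. limma's moderated test called 0 of the 65 rows, and 0% of all 28815 rows, at an adjusted p of 0.05. The smallest adjusted p was 0.9999 over the members and over all rows alike, and at an unadjusted p under 0.05 the fit gave 0 of 65 member rows against 845 rows in all (2.93%). Of the 65 rows, 21 were higher (32.3%) and 44 lower in CSA by their means, where 42.1% of all rows were higher. The median difference was -0.08 against -0.04 over all rows. With each gene counted once, by the mean of its rows, 18 genes were higher (39.1%) and 28 lower, where 41.2% of all genes were higher. Their median was -0.05, against -0.04 over all genes. Without vehicle replicate 1, 38 of the 65 rows were higher and 27 lower, and of all rows 15646 were higher and 13169 lower. The medians were then 0.03 over the members and 0.02 over all rows.

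The overlap of the groups was counted next, as a description with no test. Both CSA arrays lay above both vehicle arrays in 8 of 65 rows (12.3%), against 11.4% of all rows. They lay below both in 4 rows (6.15%, of which 3 were of Nlrc5), against 15.2% of all rows. With each gene counted once, 7 of 46 genes were above (15.2%), against 10.9% of all genes. By the same count 1 was below (2.17%), against 15.3% of all genes. No member row was apart and at least 1.5-fold higher in CSA, where all rows gave 3.62%. In the other direction 2 rows were, both of Nlrc5 (3.08%), where all rows gave 1.96%. This split depended on scaling: under median centring 1 member row was higher and 1 lower, where all rows gave 1092 and 509. Under quantile normalization it was again 1 and 1, where all rows gave 940 and 591. With 1 array left out, separation is easier for every row, and such counts stand in the last section beside those over all rows. With 2 arrays a group, an exact permutation test cannot go below p = 0.333.

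**Figure D1:**
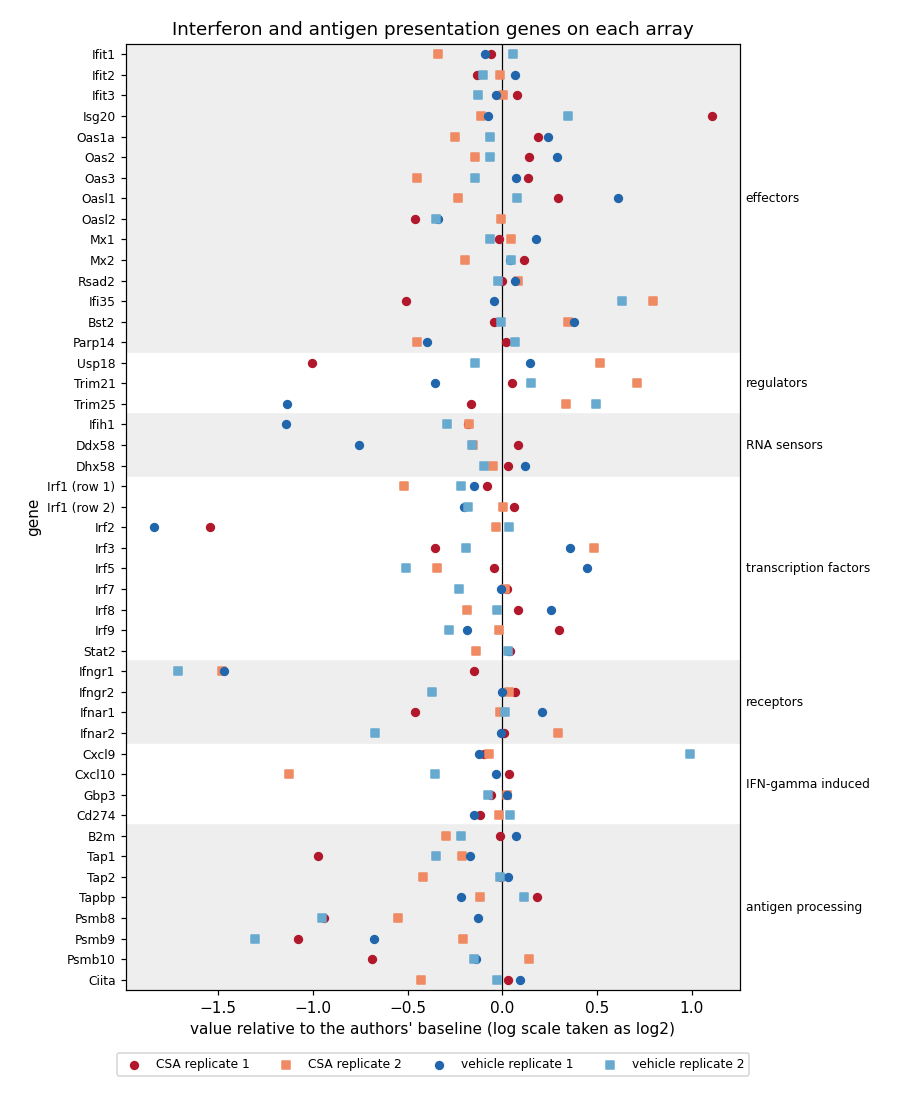
Value of each gene with a row, other than Nlrc5, on the 4 arrays, in log2 units relative to the authors' baseline (horizontal axis); each point is 1 array, reds CSA and blues vehicle, circles replicate 1 and squares replicate 2. Most effectors lie within 0.5 of each other, while Irf2 is low on both circles and Ifngr1 is low on 3 of 4 arrays.

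The antiviral effectors are the classic readout of an interferon response, and their differences were small. Of 15 genes, 4 were higher and 11 lower in CSA (5 and 10 after quantile normalization, where Mx1 turned), with a median of -0.05. Without vehicle replicate 1, 9 were higher and 6 lower, with a median of 0.03. In 10 of the 15 (66.7%) the 4 arrays lay within 0.5 of each other, against 50.7% of all genes.

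The 3 Ifit genes encode proteins that bind foreign RNA and block its translation. Ifit1 read -0.06 and -0.34 with CSA (replicates 1 and 2, an order kept below) and -0.09 and 0.06 with vehicle, a difference of -0.18 ± 0.18 (moderated standard error, 2 arrays a group, as for all differences below). Ifit3 read 0.08 and 0.0015 with CSA and -0.03 and -0.13 with vehicle, a difference of 0.12 ± 0.14. Its groups did not overlap, but the gap was smaller than the error, and Ifit1, whose ISRE matches are of the same kind, had the opposite sign. Ifit2 read -0.13 and -0.01 with CSA and 0.06 and -0.10 with vehicle, so its arrays were mixed. Rsad2, which encodes viperin, an enzyme that makes a chain-terminating nucleotide, spanned only 0.105 over the 4 arrays.

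The oligoadenylate synthetase genes make the messenger that switches on RNase L, or, for the Oasl genes, related proteins. Oas1a, Oas2 and Oas3 had differences of -0.12, -0.11 and -0.12, each under its error of 0.23, 0.21 and 0.26. All 3 were above the baseline on both replicate 1 arrays and below it on both replicate 2 arrays. Oasl1, a brake on Irf7 translation, read 0.29 and -0.24 with CSA and 0.61 and 0.08 with vehicle, a difference of -0.31 ± 0.30. Oasl2 read -0.46 and -0.01 with CSA and -0.34 and -0.35 with vehicle and so was below the baseline throughout. The groups overlapped in all 5 genes.

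Of the other effectors, Isg20, a 3′ to 5′ exonuclease, read 1.11 and -0.11 with CSA and -0.08 and 0.35 with vehicle, a difference of 0.36 ± 0.48. The value rests on CSA replicate 1, without which the difference was -0.25. Ifi35 read -0.51 and 0.80 with CSA and -0.05 and 0.63 with vehicle; here the replicates differed and not the treatments. Mx1 and Mx2, dynamin-like GTPases that trap viral particles, had differences of -0.04 ± 0.16 and -0.08 ± 0.17. Bst2, the tether that holds budding virus on the cell, gave -0.03 ± 0.24, and Parp14, an ADP-ribosyltransferase, -0.05 ± 0.27.

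Among the regulators, Usp18 removes ISG15 from proteins and shuts off the type I receptor. It read -1.01 and 0.51 with CSA and 0.15 and -0.15 with vehicle, so the 2 CSA arrays were the lowest and the highest of the 4. Trim21, an antibody receptor in the cytosol, read 0.05 and 0.71 with CSA and -0.36 and 0.15 with vehicle, a difference of 0.48 ± 0.33. Trim25, the ligase that activates the sensor RIG-I, read -0.16 and 0.34 with CSA and -1.14 and 0.49 with vehicle, a difference of 0.41 ± 0.63. Trim25's difference turned to -0.41 without vehicle replicate 1, and Usp18's turned to 0.51 without CSA replicate 1.

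The cytosolic RNA sensors had 2 of 3 genes apart and higher in CSA, where 10.9% of all genes were. Ifih1, which encodes MDA5, a sensor of long double-stranded RNA, read -0.18 on both CSA arrays and -1.14 and -0.29 with vehicle, a difference of 0.54 ± 0.33. Ddx58, which encodes RIG-I, read 0.08 and -0.15 with CSA and -0.76 and -0.16 with vehicle, a difference of 0.42 ± 0.27. Both gaps came mostly from the low value of vehicle replicate 1: without it they were 0.11 and 0.12. Dhx58, which encodes their partner LGP2, read 0.03 and -0.05 with CSA and 0.12 and -0.10 with vehicle, a difference of -0.02 ± 0.16 whose sign turned under median centring and under quantile normalization.

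**Figure D2:**
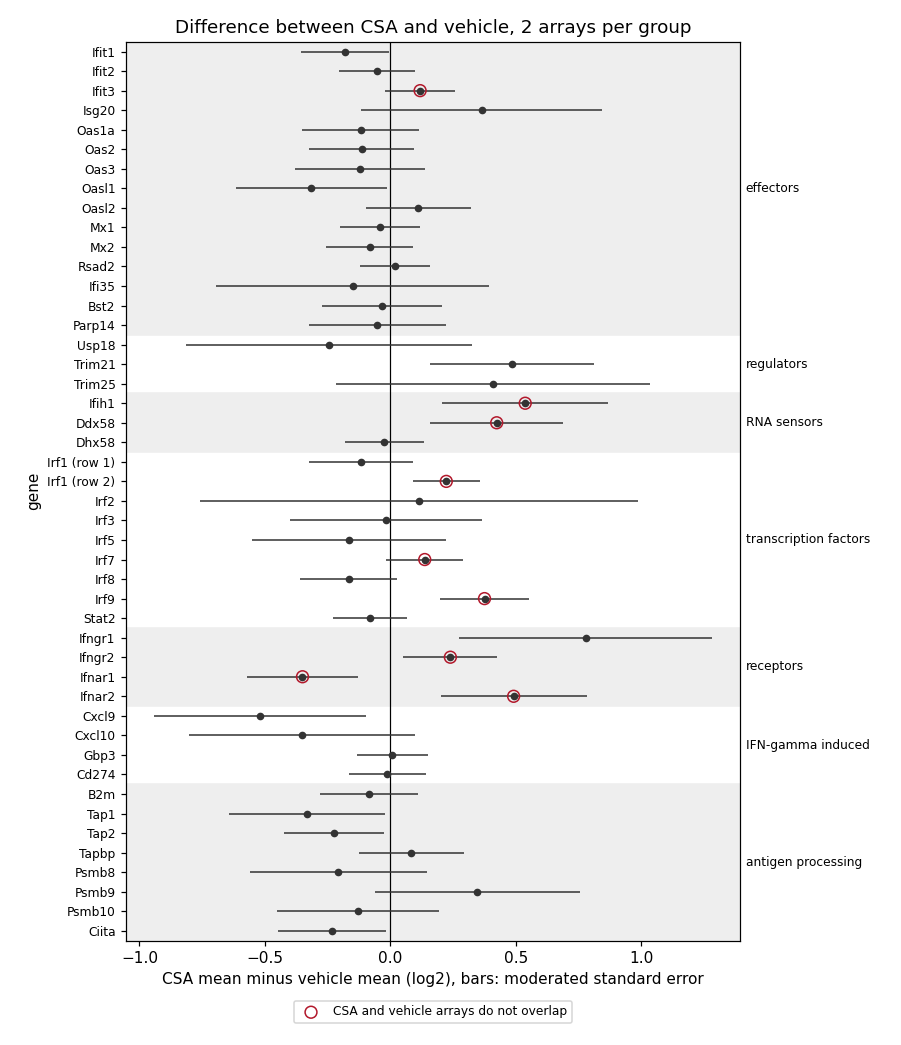
CSA mean minus vehicle mean for each gene other than Nlrc5 (log2, horizontal axis), with bars of 1 moderated standard error, 2 arrays per group; rings mark rows whose CSA and vehicle arrays do not overlap. Irf9 has the largest difference relative to its error, 0.37 ± 0.18, and the signs of Dhx58, Irf3, Cd274 and Mx1 turn under at least 1 other scaling.

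The transcription factors were split, with 4 of 8 genes higher and 4 lower (5 and 3 under either other scaling, where Irf3 turned). Leaving out vehicle replicate 1 also gave 5 and 3, with a median of 0.16 in place of 0.02. Irf9, the DNA-binding subunit of the type I interferon complex, had the smallest p of all member rows (unadjusted 0.106 in limma). It read 0.30 and -0.02 with CSA and -0.18 and -0.28 with vehicle, a difference of 0.37 ± 0.18, and both CSA arrays were above both vehicle arrays. Its partner Stat2 read 0.04 and -0.14 with CSA and 0.03 on both vehicle arrays, so the 2 subunits did not have the same sign. Irf7, the factor that amplifies type I interferon, read 0.02 and 0.01 with CSA and -0.01 and -0.23 with vehicle, a difference of 0.14 ± 0.15. Its groups did not overlap, but their nearest arrays, 0.01 and -0.01, nearly touched.

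Irf1, an activator downstream of interferon gamma, was read by 2 rows with different results. Row 10385870 read 0.06 and 0.003 with CSA and -0.20 and -0.18 with vehicle, a difference of 0.22 ± 0.13 with no overlap. Row 10376060 read -0.08 and -0.52 with CSA and -0.15 and -0.22 with vehicle, a difference of -0.12 ± 0.21. The rows disagree in sign. In the gene counts Irf1 stands as higher by the mean of its rows (0.05), but no direction is drawn from that.

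Irf2, which competes with Irf1 for the same sites, spanned more than any other member outside Nlrc5. It read -1.54 and -0.03 with CSA and -1.84 and 0.03 with vehicle, so it was low on both replicate 1 arrays and near the baseline on both replicate 2 arrays. The difference between treatments was 0.11 ± 0.87. Irf3, the factor switched on by RNA and DNA sensors, Irf5, which acts in myeloid cells, and Irf8, a myeloid and dendritic cell factor, had differences of -0.02, -0.16 and -0.17, each under its error, with overlap.

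The receptor genes held the member with the lowest values against the baseline. Ifngr1, the ligand-binding chain for interferon gamma, read -0.15 and -1.48 with CSA and -1.47 and -1.71 with vehicle, a difference of 0.78 ± 0.50. CSA replicate 1 was the high array and CSA replicate 2 lay among the vehicle arrays. Without CSA replicate 1 the difference was 0.11, and without CSA replicate 2 it was 1.44. Over the 4 arrays Ifngr1 averaged -1.20 (unadjusted p 0.009 and adjusted p 0.653 against the baseline, limma). Its partner chain Ifngr2 read 0.07 and 0.03 with CSA and -0.003 and -0.37 with vehicle, a difference of 0.24 ± 0.19 with no overlap.

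The chains of the type I receptor had differences of opposite sign. Ifnar2, the high-affinity chain, read 0.01 and 0.29 with CSA and -0.01 and -0.67 with vehicle, a difference of 0.49 ± 0.29. Ifnar1 read -0.46 and -0.01 with CSA and 0.21 and 0.01 with vehicle, a difference of -0.35 ± 0.22. In neither gene did the groups overlap, but in both the nearest arrays nearly touched. The difference of Ifnar2 was 0.16 without vehicle replicate 2, and that of Ifnar1 was -0.13 without CSA replicate 1.

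The genes most tied to interferon gamma from T cells showed no common direction. Cxcl9, a chemokine that draws T cells, read -0.10 and -0.07 with CSA and -0.12 and 0.99 with vehicle; the difference of -0.52 ± 0.42 was 0.04 without vehicle replicate 2. Cxcl10, a second ligand of the same receptor, read 0.03 and -1.13 with CSA and -0.03 and -0.35 with vehicle; the difference of -0.35 ± 0.45 was 0.23 without CSA replicate 2. Each value thus rests on 1 array. Gbp3, a GTPase of the interferon gamma response with 2 overlapping ISRE matches, read -0.06 and 0.02 with CSA and 0.03 and -0.08 with vehicle and spanned 0.103. Cd274, the checkpoint ligand PD-L1, read -0.12 and -0.02 with CSA and -0.15 and 0.04 with vehicle, a difference of -0.01 ± 0.15 whose sign turned under median centring.

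Of 9 antigen processing genes, with Nlrc5 as the mean of its rows, 5 had means below the baseline in both groups. By their differences 2 were higher and 7 lower in CSA, with a median difference of -0.21. These were 3 and 6 without vehicle replicate 1, with a median of -0.08. B2m, the light chain of every MHC class I molecule, read -0.01 and -0.30 with CSA and 0.07 and -0.22 with vehicle, a difference of -0.08 ± 0.20. The immunoproteasome swaps in 3 subunits that favour peptides for class I. Psmb8 read -0.94 and -0.55 with CSA and -0.13 and -0.95 with vehicle, a difference of -0.21 ± 0.35. Psmb9 read -1.08 and -0.21 with CSA and -0.68 and -1.31 with vehicle, a difference of 0.35 ± 0.41. Both were below the baseline on all 4 arrays and overlapped between the groups. Psmb10, the third such subunit, read -0.69 and 0.14 with CSA and -0.14 and -0.15 with vehicle.

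Tap1 and Tap2 form the transporter that carries peptides into the endoplasmic reticulum, and Tapbp encodes tapasin, which bridges it to class I. Tap1 read -0.97 and -0.21 with CSA and -0.17 and -0.35 with vehicle, a difference of -0.33 ± 0.31. Tap2 read -0.01 and -0.42 with CSA and 0.03 and -0.01 with vehicle, a difference of -0.22 ± 0.20. The low array was CSA replicate 1 for Tap1 and CSA replicate 2 for Tap2, so the chains of the transporter were low on different arrays. Tapbp gave 0.08 ± 0.21, and Ciita, the master activator of MHC class II genes, -0.23 ± 0.22, both with overlap.

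Tap1 and Psmb9 lie back to back, and their RefSeq starts are 226 bases apart, so 1 stretch serves as promoter for both. It is shown because both genes were below the baseline on every array while their differences had opposite signs. Capitals mark the 225 bases between the starts, written on the plus strand (GRCm38.p6), with Psmb9 running to the left and Tap1 to the right; 60.7% of the 275 bases are G or C, and none of it holds the ISRE core.
Tap1 and Psmb9, chr17:34187306-34187580, plus strand: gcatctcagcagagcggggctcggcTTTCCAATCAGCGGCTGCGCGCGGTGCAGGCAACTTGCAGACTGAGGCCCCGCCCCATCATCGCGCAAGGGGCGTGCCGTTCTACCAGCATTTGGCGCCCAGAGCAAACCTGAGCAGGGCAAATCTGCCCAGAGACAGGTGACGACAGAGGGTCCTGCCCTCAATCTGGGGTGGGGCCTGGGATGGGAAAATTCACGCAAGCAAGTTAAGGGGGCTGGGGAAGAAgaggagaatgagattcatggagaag
In this pair CSA replicate 1 was the lowest array for Tap1 (-0.97), where the other 3 arrays ranged from -0.17 to -0.35. For Psmb9 the lowest was vehicle replicate 2 (-1.31), below CSA replicate 1 (-1.08), vehicle replicate 1 (-0.68) and CSA replicate 2 (-0.21).

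Nlrc5, the activator of MHC class I genes, was read by 19 rows that differed widely. Of these 3 were higher and 16 lower in CSA, with differences from -1.25 to 0.79 and a median of -0.21. The split turned without vehicle replicate 1, where most of the 19 rows were higher in CSA. Row 10574145 read -0.21 and -0.44 with CSA and -0.17 and 2.03 with vehicle, a difference of -1.25 ± 0.80, and the gap rests on vehicle replicate 2. Row 10574135 read -0.81 and -0.84 with CSA and 0.53 and -0.80 with vehicle, a difference of -0.69 ± 0.49, and the gap rests on vehicle replicate 1. These are the 2 member rows that were apart by at least 1.5-fold on the values as deposited. In both the remaining vehicle array nearly touched a CSA array. Row 10574151 was at 2.29 on vehicle replicate 1 and between -0.19 and -0.48 on the other arrays.

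The mean of the 19 rows was -0.10 and -0.33 with CSA and 0.26 and -0.19 with vehicle, a difference of -0.25 ± 0.23, with overlap. Vehicle replicate 1 was the highest array in 14 of the 19 rows (73.7%, against 43.9% of all rows), and CSA replicate 2 the lowest in 15 (78.9%, against 32.9%). The markers of leukocytes and of Langerhans cells, macrophages and dendritic cells were also highest on vehicle replicate 1 (medians 0.14 and 0.19, against -0.15 to 0.03 on the other arrays). Their part in the Nlrc5 values was not tested.

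**Figure D3:**
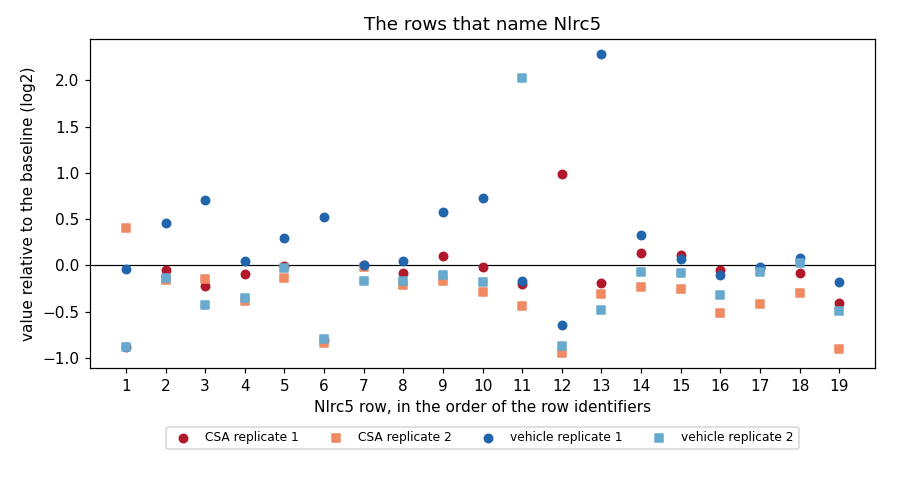
The 19 rows that name Nlrc5, in the order of their identifiers (horizontal axis), with the value on each of the 4 arrays in log2 units relative to the authors' baseline; reds are CSA, blues vehicle, circles replicate 1 and squares replicate 2. Vehicle replicate 1 is on top in 14 rows, and single arrays reach 2.03 and 2.29.

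Against the baseline, the members lay on the low side. No member row was above it on all 4 arrays, where all rows gave 3.66%, and 10 of 65 (15.4%) were below it on all 4, where all rows gave 3.33%. With each gene counted once this was 7 of 46 (15.2%), against 3.51% of all genes. The rows below were those of Oasl2, Ifih1, Ifngr1, Tap1, Psmb8 and Psmb9, row 10376060 of Irf1 and 3 rows of Nlrc5. Lying on 1 side is easier with 3 arrays, and the share over all rows was not counted there. Member rows below and above the baseline numbered 14 and 0 without CSA replicate 1, and 12 and 3 without CSA replicate 2. They numbered 23 and 1 without vehicle replicate 1, and 15 and 1 without vehicle replicate 2. limma called 0 of the 65 rows against the baseline, and 0% of all rows. At an unadjusted p under 0.05 it gave 4 of 65 (6.15%: Ifngr1, Psmb8, Psmb9 and row 10574163 of Nlrc5) against 1432 rows in all (4.97%). The sources used here do not say which arrays set the baseline, so the comparison names no cell type or condition on its other side. In some rows 2 of the 4 arrays mirrored each other around 0. Irf2 read -0.0336 on CSA replicate 2 and 0.0336 on vehicle replicate 2, and Ifnar1 read -0.0137 and 0.0137 on the same arrays. These arrays may therefore have helped to set the baseline, and the test against it may not be independent of it.

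Genes with an ISRE match in the RefSeq window were split evenly by treatment: of 14 with a row, 7 were higher and 7 lower, with a median of -0.01. The 23 genes with a window and no match had 11 higher and 12 lower, also with a median of -0.01. Their arrays spread more, with a median range over the 4 arrays of 0.82 against 0.46 for the genes with a match. The 11 genes with a GAS match had 4 higher and 7 lower and a median of -0.05. These splits depend on vehicle replicate 1: without it, most genes in each of these sets were higher in CSA. These are descriptions of counts, with no test.

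The pathway around the members had 0 rows called by limma in every list, and at an unadjusted p under 0.05 it gave 2 rows, both in the list of further interferon-induced genes described below. Of 12 rows of JAK-STAT signalling and its brakes, 6 were higher and 6 lower. The split was 9 and 3 without CSA replicate 2 and 7 and 5 without vehicle replicate 1. Pias1, a SUMO ligase, read 1.15 and 0.19 with CSA and -0.05 and 0.05 with vehicle, a difference of 0.67 ± 0.37 with no overlap. Upstream, of 15 rows of nucleic acid sensing genes, 5 were higher and 10 lower (median -0.10). These were 7 and 8 without vehicle replicate 1 (median -0.03). Tlr3, the endosomal sensor of double-stranded RNA, read -0.08 and -0.28 with CSA and 0.08 and 0.15 with vehicle, a difference of -0.30 ± 0.15. Of 8 rows of interferon genes themselves, 1 was higher and 7 lower (4 and 4 without vehicle replicate 1, 5 and 3 without CSA replicate 2), with Ifng at -0.25 ± 0.18 and the skin interferon Ifnk at -0.13 ± 0.17.

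A further list of interferon-induced genes, with 29 of 33 genes in 32 rows, had 10 rows higher and 22 lower, with a median of -0.08. Leaving out vehicle replicate 1 gave 12 and 20, with a median of -0.07. Without CSA replicate 1, 18 rows were higher and 14 lower, with a median of 0.06. Ifitm3, a membrane protein that blocks viral entry, had the smallest p in it. It read -1.35 and -0.88 with CSA and -0.12 and -0.18 with vehicle, a difference of -0.97 ± 0.21 (unadjusted p 0.012, adjusted 0.9999, limma). All 4 of its arrays were below the baseline, and the 2 CSA arrays were the lower ones. Herc6, the mouse ligase for ISG15, was higher, at -0.11 and -0.003 with CSA and -0.57 and -0.41 with vehicle, a difference of 0.44 ± 0.15 (unadjusted p 0.044). Parp12 gave 0.68 ± 0.28 (unadjusted p 0.071). The 3 named genes lay on both sides of 0.

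Around the antigen processing genes, the MHC class I chains and loading partners had 10 of 17 rows higher and 7 lower, with a median of 0.08. Without CSA replicate 2, 8 were higher and 9 lower, and without vehicle replicate 1 these were 9 and 8. Psme3, a proteasome activator that interferon does not induce, read 0.13 and 0.23 with CSA and -0.20 on both vehicle arrays, a difference of 0.38 ± 0.14. Psmb6, the standard subunit that Psmb9 replaces, read 0.01 and 0.22 with CSA and -0.32 and -0.28 with vehicle, a difference of 0.41 ± 0.15. Both were apart and both CSA arrays were high. Canx, the chaperone calnexin, read -0.36 and -0.30 with CSA and -0.07 and 0.14 with vehicle, a difference of -0.36 ± 0.15, in the opposite direction. Of the 17 rows, 4 were below the baseline on all 4 arrays.

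MHC class II chains and their partners mark antigen-presenting cells, and 11 of their 14 rows were lower in CSA (median -0.16). Vehicle replicate 1 was the highest array in 12 of the 14, and without it 9 rows were higher and 5 lower, with a median of 0.02. H2-Aa read -0.37 and -1.35 with CSA and 0.24 and -1.46 with vehicle, and Cd207, the marker of Langerhans cells, read -0.47 and -0.27 with CSA and 0.14 and -0.27 with vehicle. In both genes vehicle replicate 1 alone was above the baseline. The leukocyte marker Ptprc read -0.30 and 0.08 with CSA and 0.14 and 0.10 with vehicle, and the T cell marker Cd3e read 0.12 and -0.11 with CSA and 0.15 and -0.35 with vehicle. Cd3g, another T cell marker, read 0.55 and 0.14 with CSA and -0.69 and -0.20 with vehicle. Its difference was 0.79 ± 0.27 with no overlap (unadjusted p 0.043, adjusted 0.9999, limma). The 13 leukocyte and T cell rows had 4 higher and 9 lower, and the 16 rows of Langerhans cells, macrophages and dendritic cells 4 higher and 12 lower. Without vehicle replicate 1 the first list had 7 higher and 6 lower and the second 10 higher and 6 lower, and without CSA replicate 2 the second had 9 higher and 7 lower. Centred values do not show whether such cells were present, and the part of these markers in the members' values was not tested. The 8 endothelial rows and the 8 fibroblast rows were lower in CSA, each list with a median of -0.14. Of these, 7 endothelial rows (median -0.04) and 5 fibroblast rows (median -0.11) were lower without vehicle replicate 1. Postn, the fibroblast marker with the largest difference, read 0.35 and 0.53 with CSA and 1.13 and 1.33 with vehicle. Its difference was -0.79 ± 0.16 (unadjusted p 0.009, adjusted 0.9999, limma). Postn does not stand for its list: it and Col6a1 were above the baseline on all 4 arrays, and the other 6 fibroblast rows were not on 1 side. Col1a1 gave -0.31 ± 0.24 with overlap. Markers of differentiated epidermis were lower in CSA in 8 of 9 rows, with a median of -0.77, but without vehicle replicate 1 in 5 of 9, with a median of -0.085. Krt10 read -1.35 and -0.90 with CSA and 0.38 and -0.58 with vehicle.

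**Figure D4:**
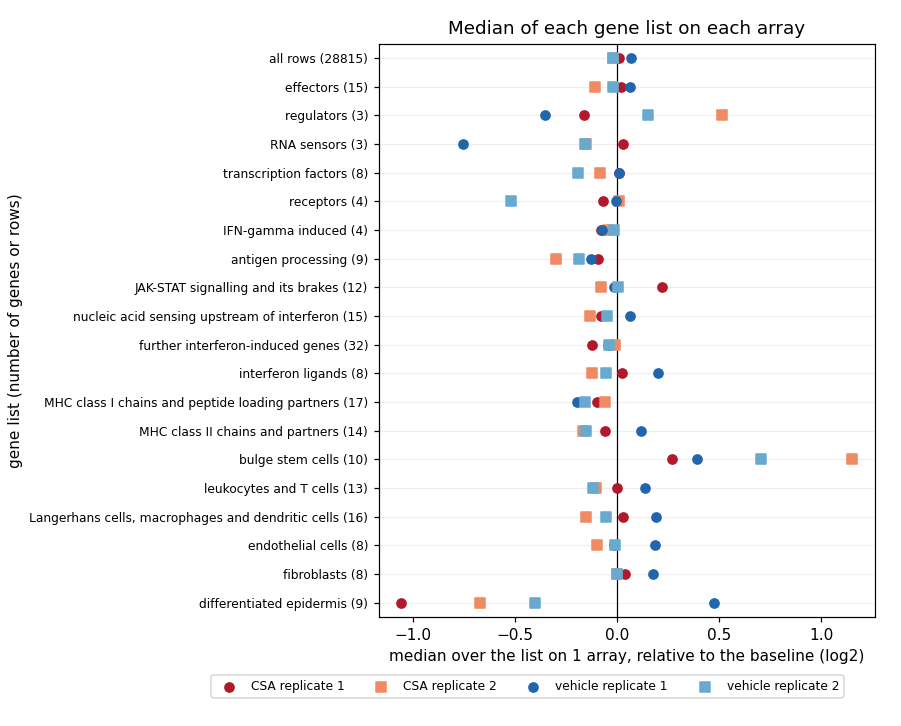
Median over each gene list on each of the 4 arrays (horizontal axis, log2 relative to the authors' baseline), for all rows, the member role groups and the surrounding lists, with the number of genes or rows in brackets; reds are CSA, blues vehicle, circles replicate 1 and squares replicate 2. Vehicle replicate 1 is the rightmost array for differentiated epidermis and for the leukocyte, Langerhans cell, endothelial and fibroblast lists. It is also rightmost for all rows, the effectors, the transcription factors, nucleic acid sensing, interferon ligands and MHC class II.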

How the data were processed

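RNA of sorted bulge stem cells from 2 CSA and 2 vehicle samples was measured on 4 one-colour arrays. The authors deposited 28815 rows of values on a log scale whose base is not named and was taken as log2, each row centred on a baseline; which arrays set it is not stated. If the base were not 2, differences and fold thresholds would scale by 1 factor and p-values would stay. The genome build was mm8, per the submitters' processing notes; the sources used here do not give how the arrays were read, background-corrected, summarized and normalized. Per the labels' protocols, 20 ng of RNA was amplified in 1 round into biotinylated cDNA. Groups and replicate numbers came from the sample titles, and no label pairs the samples.

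The platform's annotation gave 1 gene to 21780 rows and several to 1605, and 5430 rows were unnamed here. For all 46 member genes the identifier was found in RefSeq's table of GRCm38.p6; the sequences come from RefSeq windows of that assembly, and no coordinates were carried between builds. The values were fitted with limma 3.58.1 in R 4.3.3 (lmFit, then eBayes without a trend), two-sided, with Benjamini-Hochberg adjustment over all 28815 rows and a threshold of 0.05. The same fit gave the test of the mean of both groups against 0, which leaves out the spread of the baseline. No filter was applied. Counts used Python 3.11.15 and pandas 2.3.3. The scripts were tested on simulated data.

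The members and lists were chosen with earlier results of these data known. Per-array values were given for members apart by 1.5-fold, for the 3 of each role with the largest moderated t, for the 3 farthest above and below the baseline, and for Irf1 and Nlrc5, whose rows are plotted; other members were added for their role. From each other list up to 3 genes with the largest moderated t, and defining markers, could be named. Alternatives were median centring, quantile normalization, a filter on the mean, 1 row per gene, eBayes with a trend or robust estimation, the replicate number as a block, and leaving out each array; doing so for the counts of each gene list was added after seeing the data.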

Additional observations from a re-analysis of the deposited data

How the results depend on the processing

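With 4 arrays nothing was called under any of the settings run, so the limits below concern values and counts, whose precision is set by that number of arrays. limma called 0 member rows and 0 rows in all, and 0 against the baseline, with either scaling, the filter, 1 row or the mean of rows per gene, both other moderations and each array left out. With the replicate block it again called 0 of 28815 rows and 0 member rows (smallest adjusted p 0.868); same-numbered arrays share only a number, and their deviations correlated at 0.22 over rows. Rows apart by 1.5-fold numbered 1606 (1042 higher, 564 lower) and, leaving out 1 array, which makes separation easier, 2184 to 4553; the count was 889 with rows at or above the 25th percentile of the mean. The split was 1092 and 509 under median centring and 940 and 591 under quantile normalization. For member rows it was 0 higher and 2 lower in the main fit, and 1 and 1 under either scaling. Member rows apart numbered 2, then 6 to 12 with an array left out, 1 with the filter, and 0 with 1 row per gene or the mean of rows (a setting chosen after seeing the data). The median over member rows was -0.08, and -0.17 to 0.034 (without vehicle replicate 1) with an array left out. Member rows on 1 side of the baseline numbered 10, then 14 to 24 with an array left out, 6 with 1 row per gene and 0 with the filter, which removes low rows. The sign turned for Dhx58 under median centring (0.0027) and quantile normalization (0.027) and for Cd274 under median centring (0.014); the cause was not tested. Of 164 differences with an array left out, 31 turned sign, in 24 rows. Leaving out an array gave Cd274 -0.11 to 0.083, Cxcl10 -0.93 to 0.23, Cxcl9 -1.08 to 0.037, Dhx58 -0.13 to 0.085, row 10376060 of Irf1 -0.34 to 0.10, Irf2 -0.82 to 1.05, Isg20 -0.25 to 0.97, Psmb9 -0.090 to 0.78, Trim25 -0.41 to 1.22 and Usp18 -1.01 to 0.51; for Nlrc5 it gave row 10574098 -0.43 to 0.86, row 10574100 -0.57 to 0.034, row 10574102 -0.89 to 0.25, row 10574104 -0.28 to 0.11, row 10574137 -0.011 to 0.16, row 10574139 -0.20 to 0.021, row 10574141 -0.62 to 0.066, row 10574143 -0.88 to 0.024, row 10574149 -0.18 to 1.75, row 10574151 -2.54 to 0.23, row 10574153 -0.38 to 0.017, row 10574155 -0.25 to 0.12, row 10574157 -0.31 to 0.16 and row 10574159 -0.37 to 0.017.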
